A study of Mus musculus with 2 samples.

Results

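NMDA receptors are glutamate-gated cation channels, and the RNA of 6 of their subunit genes was followed here in layer 5 pyramidal neurons of the mouse cortex. The genes are Grin1, Grin2a, Grin2b, Grin2c, Grin2d and Grin3a, taken by name from the gene family, with earlier results of these data known. All 6 were found among the 43346 genes of each table. The RNA came from 2 libraries of 1 group, labelled biological replicates 1 and 2. Each was a Smart-seq type library, which copies whole RNA molecules without molecular identifiers, from a pool of 50 laser-captured neurons of a wild-type male mouse aged 8 months, with spike-in RNA added; an antibody field reads Control. The labels give the strain as B6NCrl in one field and as C57Bl5 or C57Bl6 in others, and the pools have separate sample records but 1 shared donor identifier. The spread between them may therefore be that of separate cell pools from 1 animal, technical differences included. With no second condition, no test between groups was possible.

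An NMDA receptor joins obligatory GluN1 subunits, made from Grin1, with GluN2 subunits, made from Grin2a to Grin2d, and in some receptors with GluN3 subunits such as that of Grin3a. GluN1 binds glycine or D-serine and GluN2 binds glutamate, so the channel opens with both agonists, and it conducts calcium once depolarisation relieves a magnesium block. In forebrain, GluN2B is known to prevail early in life and GluN2A to be added with maturation, while GluN2C is known from cerebellar granule cells and glia, and GluN2D and GluN3A from subsets of interneurons among other cells.

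Grin1 is spliced at its N-terminal cassette N1 and at its C-terminal cassettes C1 and C2, and the following sequences define those choices. N1 is known to alter block by protons and zinc, C1 carries a signal that holds the protein in the endoplasmic reticulum, and the alternative end C2′ is known to favour export to the surface. The sequences are shown because the Grin1 transcripts described further on differ in exactly these parts. They were read from the GENCODE M21 transcripts (GRCm38, minus strand, 5′ to 3′). Capitals mark the cassette exon, or the first 24 coding bases of the last exon in the C2 and C2′ pair, and lower case marks the neighbouring exons.
N1, exon 4 of Grin1-207, 63 bases, chr2:25311343-25311405: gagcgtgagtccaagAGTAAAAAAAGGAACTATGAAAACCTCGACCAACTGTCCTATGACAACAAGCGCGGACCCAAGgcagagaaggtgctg
C1, exon 19 of Grin1-206, 111 bases, chr2:25294438-25294548: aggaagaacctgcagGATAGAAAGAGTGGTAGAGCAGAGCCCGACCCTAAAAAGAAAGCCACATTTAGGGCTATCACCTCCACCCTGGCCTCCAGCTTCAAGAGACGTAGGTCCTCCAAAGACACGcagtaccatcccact
C2, start of exon 20 of Grin1-201, chr2:25292461-25292484: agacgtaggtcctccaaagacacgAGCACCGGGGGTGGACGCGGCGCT
C2′, start of exon 19 of Grin1-205, chr2:25292105-25292128: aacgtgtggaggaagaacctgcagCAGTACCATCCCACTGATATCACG

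Grin2b and Grin1 were the most abundant of the subunit genes, Grin2a and Grin3a were lower, and Grin2c and Grin2d were near the lower end of what the libraries measured. The unit is the deposited TPM, which gives transcripts as parts of a fixed total. It is scaled by transcript length and so allows levels to be set side by side between genes. Errors are the SD over the 2 libraries, and intervals within a library are the credibility intervals of the authors' deposited tables, whose level is not stated.

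Grin1 (ENSMUSG00000026959, chromosome 2, 25291181 to 25319187, minus strand) encodes the subunit that every NMDA receptor needs. It stood at 72.6 TPM in replicate 1 (interval 66.0 to 77.0) and 99.4 TPM in replicate 2 (91.8 to 103.8), a mean of 86.0 ± 19.0 TPM (SD, n = 2). Replicate 2 was the higher library and the intervals did not overlap. These levels exceeded those of 92.2% and 93.9% of protein-coding genes.

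Grin2b (ENSMUSG00000030209, chromosome 6, 135713233 to 136173511, minus strand) encodes GluN2B, which gives slowly closing channels. It stood at 110.3 TPM in replicate 1 (102.5 to 112.9) and 76.1 TPM in replicate 2 (70.6 to 78.7), a mean of 93.2 ± 24.2 TPM (SD, n = 2). Here replicate 1 was the higher library. Grin2b led Grin1 in replicate 1 and Grin1 led Grin2b in replicate 2, so the means of these neighbours did not differ beyond their spread.

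Grin2a (ENSMUSG00000059003, chromosome 16, 9567898 to 9995560, minus strand) encodes GluN2A, which gives fast closing channels. It measured 14.5 TPM in replicate 1 (12.7 to 15.7) and 19.3 TPM in replicate 2 (17.2 to 20.6), a mean of 16.9 ± 3.38 TPM (SD, n = 2). In each library it lay below both Grin1 and Grin2b.

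Grin3a (ENSMUSG00000039579, chromosome 4, 49661611 to 49845744, minus strand) encodes GluN3A, a glycine-binding subunit that lowers calcium entry. It stood at 11.1 TPM in replicate 1 (10.3 to 11.3) and 6.77 TPM in replicate 2 (6.24 to 7.03), a mean of 8.91 ± 3.03 TPM (SD, n = 2). All transcripts counted, both of its values lay below both values of Grin2a.

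Grin2c (ENSMUSG00000020734, chromosome 11, 115249169 to 115267243, minus strand) stood at 0.51 and 0.64 TPM in replicates 1 and 2, a mean of 0.575 ± 0.092 TPM (SD, n = 2). Its values rest on 43 reads (95% exact Poisson interval 31.1 to 57.9) and 60 reads (45.8 to 77.2). Grin2d (ENSMUSG00000002771, chromosome 7, 45831883 to 45878378, minus strand) stood at 0.53 and 0.32 TPM, a mean of 0.425 ± 0.148 TPM (SD, n = 2), from 56 reads (42.3 to 72.7) and 38 reads (26.9 to 52.2). The values of Grin2c and Grin2d overlapped and their order is not resolved. Each lies well above the limit of 3 reads that a count of 0 allows, and below 1 TPM in both libraries. Grin3b, the remaining gene of the family, had no reads in replicate 1, which by counting error alone allows up to 0.077 TPM, with a deposited interval that reaches 0.213 TPM, and stood at 0.41 TPM from 15.0 estimated reads in replicate 2, with a deposited interval of 0.25 to 0.726 TPM. No fold is given for it at these counts.

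**Figure D1:**
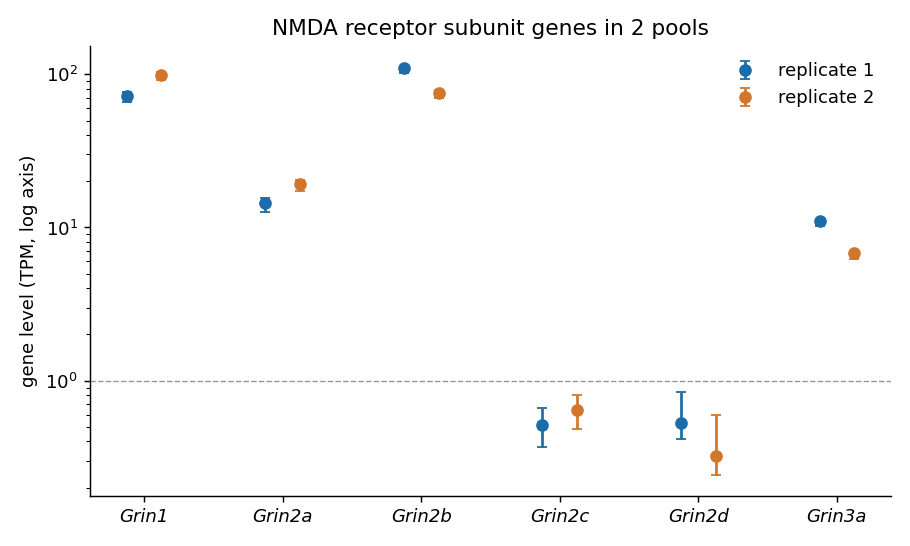
Level of each subunit gene in TPM on a log axis, with 1 point for each library and bars for the deposited credibility interval; the dashed line marks 1 TPM. Grin1 and Grin2b exchange places between the libraries (replicate 1: 72.6 and 110.3 TPM, replicate 2: 99.4 and 76.1 TPM), and Grin2c and Grin2d lie below the line.

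As a share of the summed TPM of the 6 genes, Grin2b held 52.7% in replicate 1 and 37.6% in replicate 2 (45.1% ± 10.7, SD, n = 2). Grin1 held 34.7% and 49.1% (41.9% ± 10.2). Grin2a held 6.91% and 9.51%, and Grin3a 5.28% and 3.34%. Grin2c and Grin2d together made up the small remainder, each with at most 0.316% in either library. The total was nearly the same in the pools, at 209.4 and 202.5 TPM, so in this unit the make-up differed more than the sum. TPM adds up to a fixed total in each library, so it does not show whether the amount of this RNA was alike. In reads, not divided by length, the shares lay closer, at 65.2% and 59.2% for Grin2b and 20.6% and 28.6% for Grin1.

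The Grin2a to Grin2b ratio, often used to follow the maturation of these receptors, was 0.131 in replicate 1 and 0.253 in replicate 2, or -2.46 ± 0.67 on the log2 scale (SD, n = 2). Grin2b exceeded Grin2a 7.62-fold and 3.95-fold, so the direction was shared while the size moved by more than 1.5 times between libraries. Grin1 RNA amounted to 0.531 and 0.965 of the summed RNA of the other 5 genes.

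Transcript values, available here for replicate 1, changed this picture, because much of the gene-level TPM was assigned to short transcripts that do not encode a whole subunit. A transcript was called whole when its annotated coding sequence reached at least 90% of the longest one of the gene and was not marked as incomplete. Whole transcripts held 50.6% of the Grin1 TPM, 30.6% of the Grin2b TPM and 26.3% of the Grin2a TPM, against 95.6% for Grin3a and 100% for Grin2c and Grin2d. Among 6522 protein-coding genes at TPM of at least 10 the median share was 90.4%, with quartiles of 41.4% and 100%, and 28.4% of genes lay under 50%. Of the 4 subunit genes at that level, Grin2a and Grin2b lay under 50% and Grin1 just above it.

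For Grin1 the leading entry was Grin1-209, a noncoding transcript of 3 exons and 527 bases. It took 257.9 reads, 7.90% of the gene's reads, but 41.5% of its TPM (30.1 TPM, interval 24.4 to 35.6), since TPM divides reads by length. All 527 of its bases lie within exons of whole transcripts. Whole Grin1 transcripts held 84.3% of the reads and 36.7 TPM. By reads, then, most of this RNA was assigned to whole transcripts, and by TPM about equal parts were.

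Grin2b showed the same contrast with a different set of transcripts at the 5′ end of the gene. Grin2b-204, a model of 703 bases whose coding sequence is annotated as incomplete, took 5.45% of the reads and 42.4% of the TPM (46.7 TPM, interval 40.0 to 51.1). Grin2b-205, of 2461 bases, took 13.3% of the reads and 26.3% of the TPM. It ends in an exon of its own (chromosome 6, 135869703 to 135870390) in place of the next coding exon, and its coding sequence of 337 codons stops 1 base into that exon, against 1482 codons for the whole subunit. Both whole transcripts, Grin2b-202 of 7484 bases and Grin2b-201 of 23640 bases, took 81.2% of the reads and 33.8 TPM. Grin2b-201 carries a very long last exon and took 48.1% of the reads but 9.59% of the TPM.

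Of the Grin2a TPM, 73.7% was assigned to Grin2a-203, a retained-intron transcript of 1099 bases at the 5′ end of the gene, which took 37.2% of the reads. The whole transcript Grin2a-202 held the other 62.8% of the reads and 3.81 TPM (interval 2.69 to 3.98). The longest Grin2a model of the annotation used by the authors has 4820 bases, whereas M21 has one of 14634 bases with a much longer last exon, Grin2a-206. Reads from the added bases had no Grin2a model to be counted on, and the size of this effect was not tested.

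Restricted to whole transcripts in replicate 1, Grin1 stood at 36.7 TPM, Grin2b at 33.8, Grin3a at 10.6, Grin2a at 3.81, Grin2d at 0.53 and Grin2c at 0.51. Grin3a thus exceeded Grin2a 2.77-fold on this measure, whereas with all transcripts it was 0.764 of Grin2a in the same library. Grin2b exceeded Grin2a 8.86-fold, and Grin1 amounted to 0.747 of the other 5 genes together. The order of Grin3a and Grin2a therefore depends on which transcripts are counted, while Grin2b led Grin2a either way. Both measures lack the Grin2a bases that only M21 has, and the effect of these on either order was not tested.

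**Figure D2:**
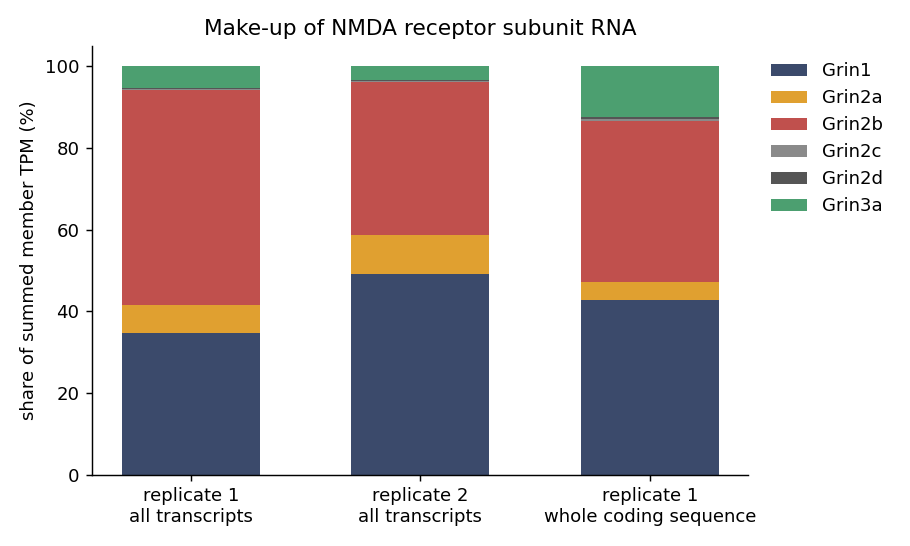
Share of each subunit gene in the summed TPM of the 6 genes, in percent, for both libraries with all transcripts and for replicate 1 with whole coding sequences only. Grin3a takes 12.3% and Grin2a 4.44% in the right-hand bar, against 5.28% and 6.91% in the left-hand bar.

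**Figure D3:**
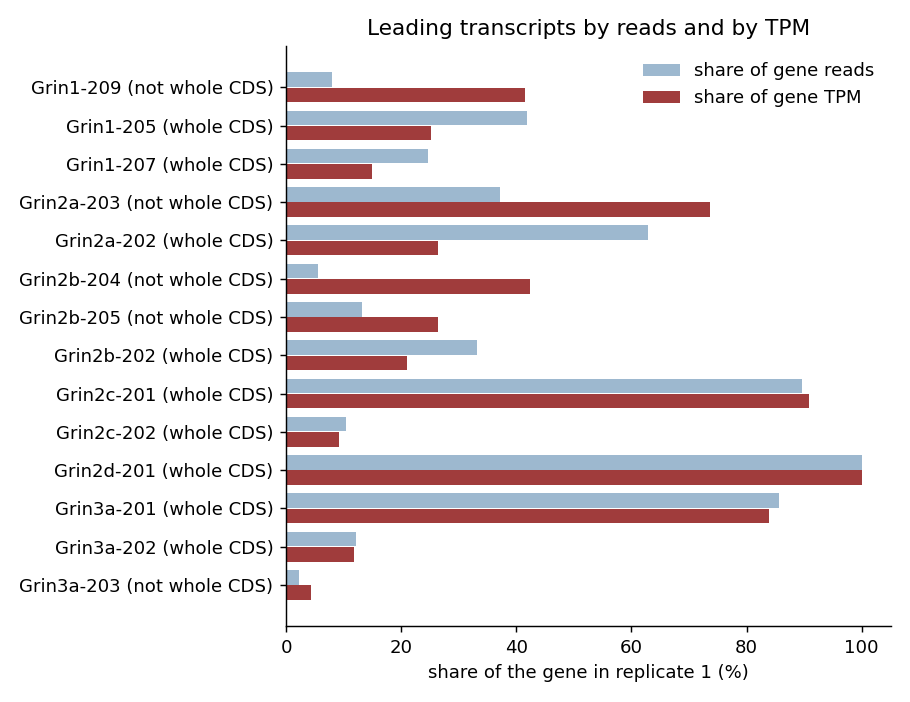
Up to 3 leading transcripts with reads of each gene in replicate 1, as a share of the gene's reads and of its TPM in percent; CDS is the coding sequence. Grin1-209, Grin2a-203, Grin2b-204 and Grin2b-205 take more of the TPM than of the reads, and the long whole transcripts of these genes take less.

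Among the 8 whole Grin1 transcripts, 4 had reads, and nearly all of that RNA used the C2′ end. Grin1-205, which lacks N1 and C1 and ends in C2′, stood at 18.3 TPM (interval 11.6 to 23.8) and held 49.8% of the whole-transcript TPM. Grin1-207, with N1, without C1 and with C2′, stood at 10.8 TPM (4.64 to 14.5) and held 29.5%. Grin1-206, without N1, with C1 and with C2′, stood at 6.89 TPM (2.49 to 9.23) and held 18.8%. The intervals of these 3 overlap in part, so only Grin1-205 and Grin1-206 are separated.

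The exon sequences printed above thus divided as follows. Forms with C2′ held 98.0% of the whole-transcript TPM and those with C2 held 1.99%, all of it Grin1-202 at 0.73 TPM with an interval that reaches down to near 0. N1 was included in 29.5% and C1 in 18.8%. Transcripts that carry both N1 and C1 received no reads, although the interval of Grin1-208, which carries both with C2′, reaches up to 3.08 TPM. N1 and C1 lie far apart in the RNA, so which of them occur together is an estimate by the authors' quantification.

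**Figure D4:**
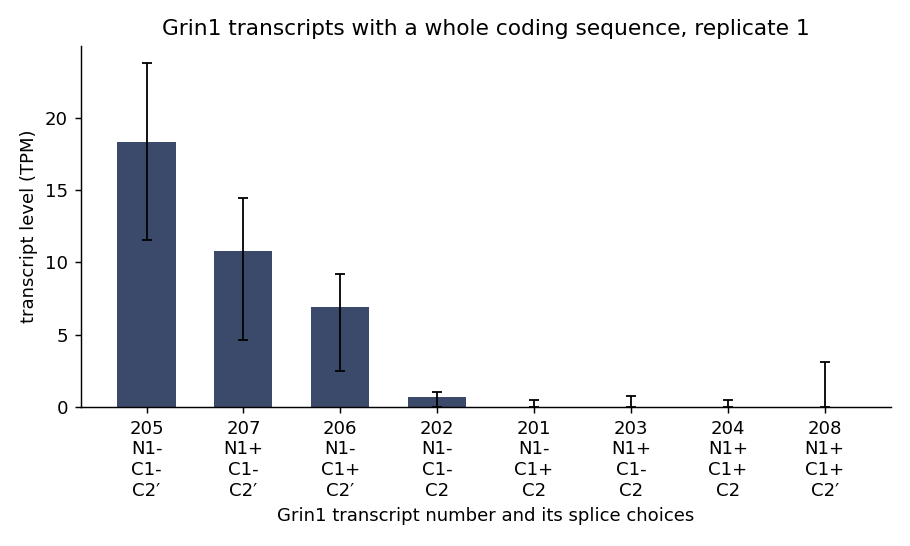
Level in TPM of the 8 Grin1 transcripts with a whole coding sequence in replicate 1, labelled by transcript number and by inclusion (+) or lack (-) of N1 and C1 and the C2 or C2′ end; lines are deposited credibility intervals. The highest 3, at 18.3, 10.8 and 6.89 TPM, all end in C2′.

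Grin3a has a pair of whole transcripts that differ by a 60-base insert at the start of the last exon. The insert is shown because it is the whole difference between the annotated proteins of 1115 and 1135 codons. Capitals mark it, read from the M21 transcript Grin3a-202 on the minus strand of GRCm38.
Grin3a insert, chr4:49665566-49665625: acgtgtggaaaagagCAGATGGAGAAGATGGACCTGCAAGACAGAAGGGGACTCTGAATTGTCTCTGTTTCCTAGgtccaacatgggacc
Grin3a-201, without the insert, stood at 9.26 TPM (interval 7.26 to 9.91), and Grin3a-202, with it, at 1.30 TPM (0.404 to 2.88). The form with the insert held 12.3% of the whole-transcript TPM, and its interval lay below that of the form without it. Grin2d reads all fell on 1 whole transcript, and of the Grin2c TPM 90.8% fell on Grin2c-201.

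No subunit gene differed by 2-fold between the pools. For this comparison reads were scaled to CPM, reads relative to a fixed library size set by TMM, and ratios were taken as log2((CPM + 1)/(CPM + 1)). Genes with a mean of 1 CPM or more numbered 14332, of which 10.4% lay beyond 2-fold, 6.46% toward replicate 1 and 3.91% toward replicate 2, against 0 of the 6 subunit genes. At 10 CPM or more the share was 4.47% of 9189 genes, against 0 of the 4 subunit genes at that level. Ratios above equality were found for 3 of the 6 subunit genes and for 49.8% of all genes. The median absolute log2 ratio was 0.33 for the subunit genes and 0.32 for all genes at 1 CPM or more. Since 4 of the 6 subunit genes lie at 10 CPM or more, these medians cover genes of unlike level. No median ratio was taken for genes of like level. With 1 library on each side these ratios have no replicate check.

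Grin3a had the largest log2 ratio at pseudocount 1, 0.70, with 67.9 CPM in replicate 1 and 41.3 CPM in replicate 2, a plain ratio of 1.64 (95% exact counting interval 1.52 to 1.78). Grin2d had a plain ratio of 1.65, as far from equality, with a wide interval of 1.08 to 2.57. The ratio was 1.20 for Grin2b (1.17 to 1.23), 0.783 for Grin1 (0.748 to 0.818), 0.805 for Grin2a (0.722 to 0.898) and 0.804 for Grin2c (0.530 to 1.21). Relative to TMM sizes, then, Grin2b, Grin2d and Grin3a were higher in replicate 1 and Grin1, Grin2a and Grin2c in replicate 2, but with libraries scaled to spike-in totals Grin1, Grin2a and Grin2c turned to log2 ratios of 0.00, 0.04 and 0.03. That scaling moved the median log2 ratio of all genes from -0.00 to 0.34 and the share of 2-fold differences that were higher in replicate 1 from 62.3% to 85.9%. It put Grin3a at 2.08-fold, the 1 subunit gene beyond 2-fold, where 13.5% of 14375 genes were. The intervals cover counting error only, since reads without molecular identifiers are not independent molecules.

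The Grin2b difference was larger in TPM than in reads. Its TPM ratio was 1.45 against a CPM ratio of 1.20, and the mean transcript length by which its reads were divided was 4790 bases in replicate 1 and 5779 in replicate 2. For the other subunit genes this length changed by a factor of 0.937 to 1.00 between the libraries.

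**Figure D5:**
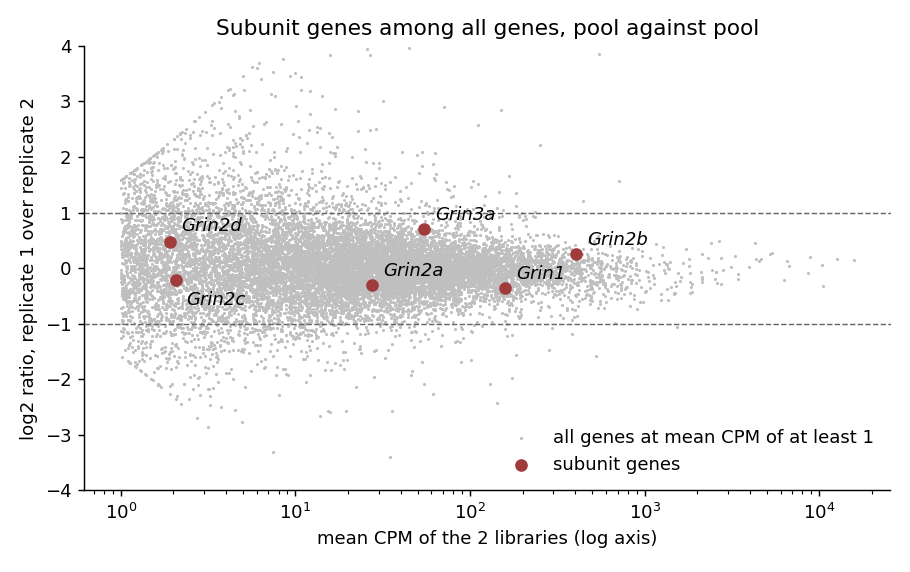
Log2 ratio of scaled reads, replicate 1 over replicate 2, against mean CPM on a log axis for 14332 genes (grey) and the 6 subunit genes (red); dashed lines mark 2-fold, and 13 genes lie beyond the vertical axis. All 6 subunit genes lie between the dashed lines, with Grin3a nearest to one at 0.70.

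Markers of other cells differed between the pools and are given here because GluN2C, GluN2D and GluN3A are also known from such cells. All 17 interneuron markers had reads in each pool, 17 and 15 of them at TPM of at least 1. Vip stood at 152.8 TPM from 4365 reads in replicate 1, but at 0.03 TPM from 1 read in replicate 2. Adarb2, at 2.51 and 0.29 TPM, was also under 1 TPM in replicate 2. The summed level of the 17 was 6757 TPM in replicate 1 and 4369 TPM in replicate 2, a sum led by Cck, which pyramidal neurons express too. In TPM 14 of the 17 were higher in replicate 1 and 3 in replicate 2. In scaled reads 7 of the 17 lay beyond 2-fold, against 10.4% of all genes tested. Higher in replicate 1 were 6 of the 7, among them Vip, Adarb2 and Sst, the last at 2506 and 844.4 TPM. The other, Lamp5, was higher in replicate 2, at 115.0 and 320.8 TPM. Vip, Adarb2, Sst and Lamp5 were singled out after their values were seen. Grin2d and Grin3a were higher in replicate 1 under TMM sizes, and the part of these cells in their levels was not tested. All 14 astrocyte markers were at TPM of at least 1 in each pool, with sums of 702.1 and 820.3 TPM beside Grin2c at 0.51 and 0.64 TPM, and their part was not tested either. Summed oligodendrocyte precursor markers stood at 42.7 and 24.5 TPM, oligodendrocyte markers at 660.8 and 815.9, microglial markers at 183.3 and 80.7, and endothelial and mural markers at 147.2 and 148.8. At least 2-fold higher in replicate 1 were 4 of 7 precursor and 8 of 10 microglial markers, against 6.46% of all genes tested. None of either list was at least 2-fold higher in replicate 2, and no astrocyte or oligodendrocyte marker lay beyond 2-fold. Of the 10 endothelial and mural markers, 1 was at least 2-fold higher in replicate 1 and 2 in replicate 2, which their near-equal sums do not show. Among all genes tested, 6.46% were at least 2-fold higher in replicate 1 and 3.91% in replicate 2. No marker of these lists was without reads in either pool. Of the labelled cell type itself, all 13 glutamatergic and layer 5 genes were at 5 TPM or more in each pool, with sums of 2895 and 5556 TPM, most of it Pcp4 at 2134 and 4468 TPM. Of these 13, 9 had the higher TPM in replicate 2 and 4 in replicate 1, namely Neurod6, Bcl11b, Crym and Tbr1. In scaled reads 3 of the 13 were at least 2-fold higher in replicate 2, against 3.91% of all genes tested, and none in replicate 1. The 3 were Pcp4, Fezf2 at 20.0 and 44.4 TPM, and Etv1 at 15.45 and 93.6 TPM. Slc17a7 of this list stood at 31.9 and 49.3 TPM. That was below the interneuron marker Gad1 at 142.6 and 94.8 TPM, and above Slc32a1 at 3.63 and 2.66 TPM. These genes were picked after their values were seen. In pooled cells, more cells of a type and more RNA per cell cannot be told apart.

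The other genes of the pathway were read in lists of partners. The median protein-coding gene stood at 2.02 TPM in replicate 1 and 1.84 in replicate 2, where 55.8% and 54.4% of such genes had 1 TPM or more, 52.2% in both, as 4 of the 6 subunit genes did.

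Both libraries had all 14 scaffold and anchor genes at 1 TPM or more and 11 at 5 TPM or more. Their median level was 25.0 TPM in replicate 1 against 25.9 in replicate 2. The lowest, named after their values were seen, were Dlg4 at 1.27 and 1.97 TPM and Shank3 at 1.26 and 1.27 TPM. The highest were Lin7b, an adaptor of the Lin7 complex that binds cargo of the GluN2B transport motor, at 338.6 ± 28.7 TPM (SD, n = 2), Dlgap1, which links scaffolds of the postsynaptic density, at 117.7 ± 9.12, and Homer1 at 79.0 ± 3.27. None of the 14 differed 2-fold between the pools, against 10.4% of all genes tested, and the list is too short to be set apart by this.

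All 12 kinases and phosphatases that act on the receptor or downstream of it reached TPM of at least 1, with medians of 83.0 and 84.9 TPM. Ppp3ca and Ppp3cb, catalytic subunits of the phosphatase calcineurin, stood at 511.5 ± 5.44 and 116.5 ± 4.43 TPM (SD, n = 2), and Camk2b, a subunit of the kinase CaMKII that docks on GluN2B, at 116.4 ± 2.11. None of the 12 differed 2-fold, against 10.4% of all genes tested, again too few genes to set the list apart.

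Trafficking and surface partners had medians of 15.3 and 16.5 TPM, with 12 and 11 of 12 at TPM of at least 1. The highest were the endosomal protein gene Nsg1 at 170.9 ± 43.2 TPM (SD, n = 2), Akap9, which encodes the GluN1-binding anchor yotiao among other forms, at 123.9 ± 20.7, and Neto1, an auxiliary protein of glutamate receptors, at 24.9 ± 7.68. None of these 12 differed 2-fold, against the same 10.4% of all genes tested, which does not set so short a list apart.

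Among 11 downstream genes, Calm2, which encodes the calcium sensor calmodulin, stood at 6668 ± 736 TPM and Calm3 at 374.3 ± 44.1 TPM (SD, n = 2). Nos1, the neuronal nitric oxide synthase that scaffolds tie to the receptor, was under 1 TPM in both libraries, at 0.77 and 0.41. The list's medians were 26.8 and 13.4 TPM, and 2 of its 11 genes were at least 2-fold higher in replicate 1, against 6.46% of all genes tested, a count too small to set the list apart. These were Bdnf, a neurotrophin induced by calcium entry, at 26.8 and 12.6 TPM, and Rasgrf2, a calcium-regulated exchange factor, at 8.39 and 3.23 TPM, both named after their values were seen.

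The genes that supply or remove the co-agonists glycine and D-serine were lower, with medians of 2.68 and 2.91 TPM and 6 of 11 at TPM of at least 1 in each library. Srr, the serine racemase that makes D-serine, was highest at 38.5 ± 6.26 TPM (SD, n = 2), followed by Slc7a10, a neuronal transporter of small neutral amino acids, at 14.1 ± 2.72. Phgdh, the first enzyme of serine synthesis, stood at 13.7 and 5.41 TPM and was the 1 gene of 7 tested in this list at least 2-fold apart, against 10.4% of all genes tested. The other 5 lay under 1 TPM in both libraries. Slc6a5, a glycine transporter, and Dao, which degrades D-serine, had no reads in either library. Slc1a5 had no reads in replicate 1 and 3 in replicate 2, Shmt1 stood at 0.35 and 0.39 TPM, and Gldc of the glycine cleavage system at 0.38 and 0.92.

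Set beside the other ionotropic glutamate receptor genes, the 6 NMDA subunit genes had medians of 12.8 and 13.0 TPM and the 11 AMPA, kainate and delta genes medians of 12.04 and 8.27 TPM. The AMPA receptor genes Gria2 at 250.5 ± 6.77 TPM and Gria3 at 95.2 ± 14.2 TPM (SD, n = 2) were the highest of that list, followed by Gria1 at 53.7 ± 7.69. With all transcripts counted, Grin2b and Grin1 lay near Gria3. Whole transcripts alone held 33.8 TPM of Grin2b and 36.7 TPM of Grin1 in replicate 1, and no such value was taken for the AMPA receptor genes. Grik4, named after its values were seen, was the 1 gene of the 11 at least 2-fold apart, at 2.03 and 0.48 TPM, a share near the 10.4% of all genes tested.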

How the data were processed

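RNA was measured in 2 pools of layer 5 pyramidal neurons. The authors deposited, per gene, an expected count (estimated reads, not normalized), TPM and FPKM, with the posterior SD of the count and bounds of TPM, and for replicate 1 a transcript table with each transcript's percent of its gene's TPM. Tables were made from transcriptome alignments on mm10 with GENCODE M4, per the text files deposited with them. Which aligner and quantifier were used, and whether strand was, is not given in the sources used here. Antisense Grin1os (18.5 and 17.4 reads) and Gm26653 at Grin2b (64 and 61 reads) overlap members.

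Replicate 1 had a depth of 24171434 expected counts and replicate 2 of 27946180, of which 4.28% and 5.32% were ERCC spike-ins. Library sizes used genes only, leaving out 96 spike-ins, 26248 numeric entries and 1 phiX entry. Symbols matched 42462 of 43346 gene identifiers. Coordinates, exons and coding sequences are those of GENCODE M21, whose build GRCm38 is mm10, joined by identifier; 26 of 31 member transcripts had the same length in both annotations. Expected counts were rounded for scaling and for exact intervals. TMM sizes came from edgeR 4.0.16 and alternative sizes from DESeq2 1.42.0 (R 4.3.3). Other values used Python 3.11.15, pandas 2.3.3, numpy 2.4.6 and scipy 1.17.1. The fold and interval code was tested on simulated data.

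Members and lists were chosen with earlier results of these data known. All members are named, the 3 highest of each pathway list, every gene of those lists under 1 TPM in both libraries, and up to 3 transcripts a gene; others are said to be named after their values were seen. One gene that this rule selects is not reported here. No gene was named for a like pattern, since 2 libraries hold none. Alternatives were FPKM, TPM over genes only, expected counts, coding transcripts, other scalings, filters and pseudocounts, and each library alone.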

Additional observations from a re-analysis of the deposited data

How the results depend on the processing

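The level of Grin2b over Grin2a kept its direction under every setting run, while its size did not. Every setting used the same M4 quantification, whose longest Grin2a model has 4820 bases against 14634 in M21. None of them could therefore show the effect of the missing Grin2a bases, on this ratio or on that of Grin3a to Grin2a. The log2 ratio of Grin2a to Grin2b was -2.46 with both libraries, -2.93 and -1.98 in single libraries, -3.89 from expected counts, -4.85 from transcripts typed as coding in replicate 1 and -3.15 from whole coding sequences in replicate 1, a setting chosen after seeing the data. Transcripts typed as coding include the short Grin2b-204 and Grin2b-205 but not Grin2a-203, so the value of -4.85 sets unlike transcripts side by side. With whole coding sequences in replicate 1, levels were 36.7 TPM for Grin1, 33.8 for Grin2b and 3.81 for Grin2a. Shares of the 6 genes were then 4.44% for Grin2a, 12.3% for Grin3a, 0.594% for Grin2c and 0.617% for Grin2d. From expected counts, not divided by length, the shares were 62.2% for Grin2b, 24.6% for Grin1, 8.31% for Grin3a, 4.25% for Grin2a and 0.293% for Grin2d. In FPKM the mean of Grin2c was 0.465. By reads in place of TPM, whole transcripts held 84.3% of Grin1, 62.8% of Grin2a, 81.2% of Grin2b and 97.7% of Grin3a in replicate 1, and Grin1-209, Grin2a-203 and Grin2b-204 held 7.90%, 37.2% and 5.45%. With each library alone, levels ranged from 72.6 to 99.4 TPM for Grin1, 14.5 to 19.3 for Grin2a, 76.1 to 110.3 for Grin2b, 0.51 to 0.64 for Grin2c, 0.32 to 0.53 for Grin2d and 6.77 to 11.1 for Grin3a. With spike-in totals 1 member, Grin3a, lay beyond 2-fold, against 13.5% of all genes. At mean CPM of at least 10, 411 of 9189 genes lay beyond 2-fold, against 1487 of 14332, and with a pseudocount of 0.1 CPM 2138 did, with 0 members under either. With 2 libraries, leaving one out moves a mean by less than 1 SD by construction, so the ranges over single libraries say nothing about stability. No paired analysis was possible because there is only 1 group. Depth limits Grin2c, Grin2d and Grin3b, which rest on 60 reads or fewer in each library.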
